A study of Ovis aries with 6 samples.

Results

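ENSOARG00000005888 and Novel01126 are 2 of the 29307 genes in a read count table of sheep testis, chosen because earlier results of these data showed both to be low in restricted testes and to vary together. The values that chose them are their read counts in the 6 libraries. The difference between diets, the joint pattern and the place of maintenance library A13 are therefore described here without a test. The libraries are testis mRNA of the Hu breed of domestic sheep, from 3 samples at a maintenance energy level (A13, A15 and A16, maintenance replicates 1 to 3) and from 3 at a 55% energy level, called restricted here (D9, D10 and D11, restricted replicates 1 to 3). The labels give no age, time of collection or genotype and do not state that the samples are from separate animals, so the spread between samples may in part be technical. The libraries held 13876765 to 20050430 counted reads, with the 3 restricted libraries the least deep. Both genes passed the filter on low counts, as did 22323 genes in all.

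The testis holds the seminiferous tubules, in which germ cells supported by Sertoli cells develop into sperm, and the Leydig cells between them, which make testosterone. Bulk RNA of such a tissue sums over all of these cells, so that fewer cells of a type and less RNA per cell cannot be told apart. An Ensembl identifier such as ENSOARG00000005888 stands for a gene model in the public sheep annotation, whereas an identifier such as Novel01126 stands for a gene outside it, called unannotated here. The reference supplied for sheep held 0 of the 29307 identifiers, and the files do not pair them with names. Neither gene is therefore given a symbol, a function or a position, and the markers of testis cell types could not be looked up. Whether the genes lie near each other, overlap or share reads with similar genes was not analysed here.

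The gene models differ in size. The deposited tables imply a length of 4470 bases for ENSOARG00000005888, longer than 89.0% of the 15695 tested Ensembl genes, whose median was 1632 bases. Novel01126 is 435 bases long, and 3.06% of the 6628 tested unannotated genes are shorter (median 1712 bases).

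ENSOARG00000005888 was read at 2 separate levels. It had 25, 601 and 565 reads in A13, A15 and A16, and 31, 22 and 23 reads in D9, D10 and D11. Scaled by the library total to CPM (counts per 1000000 counted reads), these are 1.61, 30.0 and 31.6 CPM in A13, A15 and A16, and 2.02, 1.48 and 1.66 CPM in D9, D10 and D11. A15 and A16 were high and the other 4 libraries low, and the diets overlapped, because A13 lay between D10 and D11. Group levels averaged 21.1 ± 16.9 CPM at the maintenance level and 1.72 ± 0.279 CPM at the restricted level (SD, n = 3 each). Without A13 the maintenance mean was 30.8 CPM over 2 libraries.

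Novel01126 was high in the same libraries, but among the low ones A13 lay above the restricted libraries. Its reads numbered 48, 339 and 326 in A13, A15 and A16, and 26, 15 and 24 in D9, D10 and D11. These correspond to 3.09, 16.9 and 18.2 CPM for A13, A15 and A16, and 1.70, 1.01 and 1.73 CPM for D9, D10 and D11. All 3 restricted libraries lay below all 3 maintenance libraries, with A13 nearest to them. The same order, restricted wholly below maintenance on CPM, was found in 595 of the 22323 tested genes (2.67%), and in 896 (4.01%) after TMM scaling, a trimmed mean of log ratios between libraries that evens out differences in library composition. Novel01126 is among both, and nothing is read from this, since the gene was chosen on this contrast. The group levels were 12.7 ± 8.38 and 1.48 ± 0.408 CPM (SD, n = 3 each), and 17.6 CPM was the maintenance mean without A13.

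**Figure D1:**
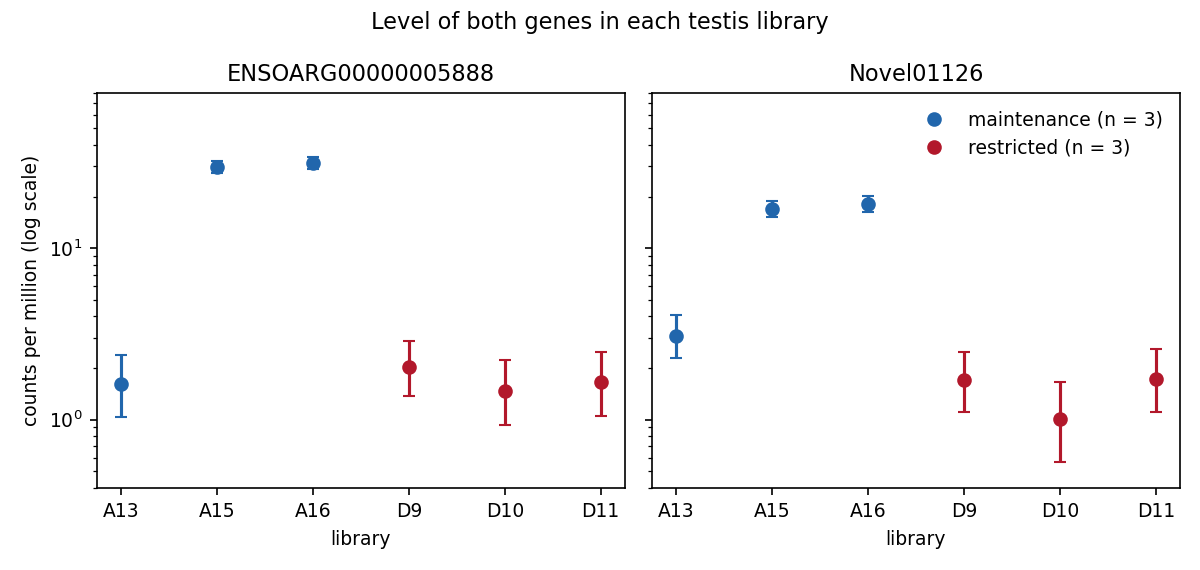
Level (CPM) of ENSOARG00000005888 (left) and Novel01126 (right) in each library on a log axis, blue for maintenance and red for restricted testes. Points are single libraries and bars are exact 95% Poisson intervals for counting error only. A15 and A16 stand above the other 4 libraries in both panels, and A13 lies among the restricted libraries on the left and above them on the right.

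Read by library, the low levels of ENSOARG00000005888 could not be told apart at this depth. Exact 95% intervals for the ratio of 2 libraries, which cover counting error only and are not adjusted over the 30 ratios computed, lay above 1 in 8 of its 15 library pairs. Those 8 pairs set A15 or A16 against each of the other 4. A15 exceeded A13 by 18.6-fold (interval 12.5 to 29.0) and A16 exceeded A13 by 19.6-fold (13.1 to 30.5). A13 was 1.09-fold D10 (0.590 to 2.03), D11 was 1.03-fold A13 (0.558 to 1.89) and D9 was 1.26-fold A13 (0.718 to 2.22). A15 and A16 themselves differed by 1.05-fold (0.937 to 1.18). For this gene the intervals did not separate A13 from the restricted libraries. Its likeness to them was known when the pair was chosen and is a description only.

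For Novel01126 the same library stood between both levels. Its intervals lay above 1 in 11 of 15 library pairs, which add A13 against each restricted library. A13 exceeded D9 by 1.82-fold (1.11 to 3.06), D10 by 3.07-fold (1.69 to 5.90) and D11 by 1.79-fold (1.07 to 3.05). It was in turn exceeded 5.46-fold by A15 (4.03 to 7.56) and 5.89-fold by A16 (4.34 to 8.15). The 3 restricted libraries were not separated from each other by their intervals, nor was A15 from A16. The fewest reads behind any of these values are the 15 of Novel01126 in D10.

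The genes were high in the same libraries, and the share of each in their summed reads differed between libraries. The intervals of this share cover counting error only, take reads as independent molecules and rest on the counts that chose the pair, so they describe single libraries and test nothing between diets. Novel01126 supplied 36.1% of the reads of both genes in A15 (exact Clopper-Pearson 95% interval 33.0 to 39.2%, 940 reads) and 36.6% in A16 (33.4 to 39.8%, 891 reads). In A13 it supplied 65.8% (53.7 to 76.5%, 73 reads), an interval wholly above those of A15 and A16. The restricted libraries lay between, at 45.6% in D9 (32.4 to 59.3%), 40.5% in D10 (24.8 to 57.9%) and 51.1% in D11 (36.1 to 65.9%), on 57, 37 and 47 reads. Their intervals overlapped those of the maintenance libraries on both sides. By diet the share averaged 46.1 ± 17.0% (maintenance) and 45.7 ± 5.26% (restricted; SD, n = 3 each). Pearson r between the genes over the 6 libraries is given below as a description only. The libraries fall into separate high and low sets, so it says little about variation within them.

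**Figure D2:**
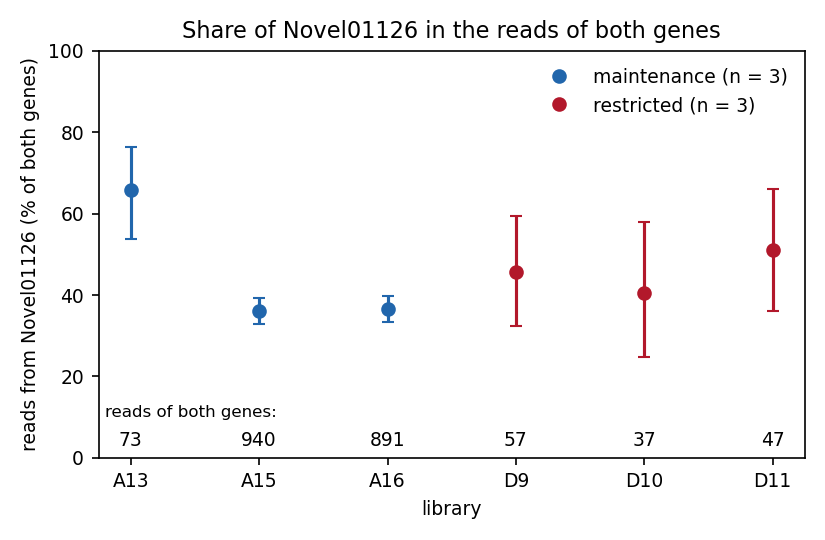
Reads from Novel01126 as a percentage of the reads of both genes in each library, blue for maintenance and red for restricted testes, with exact 95% binomial intervals and the summed reads printed at the foot. A15 and A16 sit at 36.1 and 36.6%, A13 at 65.8%, and the restricted libraries between 40.5 and 51.1%.

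Compared per length, Novel01126 was the more abundant of the pair in every library. On the deposited FPKM scale, which divides reads by gene length and library total, ENSOARG00000005888 stood at 0.361, 6.71 and 7.06 in A13, A15 and A16 and at 0.453, 0.331 and 0.371 in D9, D10 and D11. The FPKM levels of Novel01126 were 7.11, 38.9 and 41.9 in the maintenance and 3.90, 2.32 and 3.98 in the restricted libraries. The level of Novel01126 was thus 5.80 and 5.93 times that of ENSOARG00000005888 in A15 and A16, 19.7 times in A13 and between 7.01 and 10.7 times in the restricted libraries. In A15 and A16 the Ensembl gene lay above 62.3 and 61.3% of the genes with a read by FPKM level, and in the other 4 libraries above 11.5 to 15.5%. Novel01126 lay above 86.2 and 86.8% of them in A15 and A16, above 57.7% in A13 and above 40.8 to 51.3% in the restricted libraries.

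The fit over all genes gave log2 changes of -3.75 (SE 0.98) for ENSOARG00000005888 and -3.25 (SE 0.71) for Novel01126, restricted against maintenance. Without A13 they were -4.30 (SE 0.32) and -3.71 (SE 0.37). With all 6 libraries the edgeR quasi-likelihood test called 0 of 22323 genes at an adjusted p of 0.05 (0%), hence neither of these. Its unadjusted p was below 0.05 for 540 of the 22323 genes, a share under 0.05. That number was 2459 of 22950 without A13, 1364 of 23057 without D9 and 305 of 23047 without D10. It was 290 of 22925 without A16, 232 of 23093 without D11 and 495 of 22943 without A15. DESeq2 on the same genes called 9 of the 22268 it tested (0.0404%), the edgeR exact test called 8 of 22323 (0.0358%), and edgeR without A13 called 1 of 22950 (0.00436%). DESeq2 called both genes, the exact test called Novel01126, and the fit without A13 called ENSOARG00000005888. The changes, their SE and these calls rest on the counts that chose the genes and are no further evidence of a difference between the diets. The larger changes without A13 follow from leaving out the lowest maintenance library of both genes. The fit without A13 was remade over all genes, and the cause of its smaller SE was not tested.

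The spread of both genes over all 3 maintenance testes came with A13. The SD of log2(CPM + 0.1) of ENSOARG00000005888 was 2.41 in maintenance, at least as large in 236 of the 22323 tested genes, and 0.22 in restricted testes, where 20.1% of genes had a smaller one. For Novel01126 it was 1.42 in maintenance, reached by 1549 genes, and 0.41 in restricted testes, where the median over all genes was also 0.41. The median gene had an SD of 0.47 in maintenance testes. Without A13 the SD over A15 and A16 was 0.053 for ENSOARG00000005888 and 0.076 for Novel01126, below the restricted SDs, and the median gene had 0.23 over these 2 libraries. An SD of 2 libraries is not on a par with one of 3.

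The pair was chosen for its pattern over these libraries, so its place among all genes is given as a description. On the log2(CPM + 0.1) scale the highest library exceeded the lowest by 4.33 for ENSOARG00000005888 and by 4.05 for Novel01126, and 509 and 668 genes (2.28 and 2.99%) were at least as wide. The step from the lower of the 2 highest libraries down to the next was 3.82 for ENSOARG00000005888, and no other tested gene had one as large. For Novel01126 it was 2.41, which 6 genes reached, itself included (3 genes with a pseudocount of 1 CPM), while the median over all genes was 0.15. A step of at least 2, or 4-fold, was found in 11 genes. In 4 of these 11 the libraries above the step were A15 and A16, the 2 genes described here and the unannotated genes Novel02746 and Novel03794, which were picked out after their values were seen. The other 7 had other libraries on top. A15 and A16 were the 2 highest libraries in 2509 of the tested genes (11.2%), so that 4 of those 2509 had a step of at least 2.

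**Figure D3:**
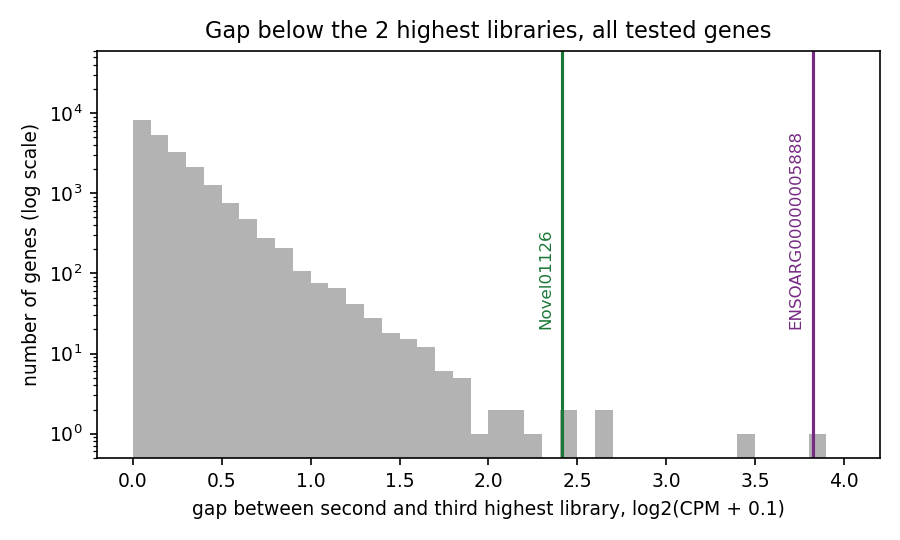
Number of tested genes (log axis) by the step from the lower of their 2 highest libraries down to the next on the log2(CPM + 0.1) scale, with both genes marked by lines. Nearly all genes lie below 2, Novel01126 is at 2.41 and ENSOARG00000005888 at 3.82, the largest of the 22323 genes.

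Over all tested genes the libraries did not divide as they did for this pair. Principal component 1 of the log2(CPM + 0.1) values, TMM-scaled, took up 56.9% of their variance and placed A15 (107.5), D9 (48.9) and A16 (37.5) on one side and A13 (-90.5), D10 (-55.4) and D11 (-47.9) on the other. D9, which shared a side with A15 and A16 on this component, was low for both genes. The component accounted for 60.1% of the variance of ENSOARG00000005888 over the 6 libraries and 44.5% of that of Novel01126, against a median of 61.5% over all tested genes. A13, which lay far below A15 and A16 for both genes, was also the library farthest out on its side, and the part of this component in its values was not tested.

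By the distance used here the genes with the most similar profiles were mostly unannotated and weakly read. Among all 22323 tested genes 6628 were unannotated, and nothing is read from the difference. Likeness was measured as the Euclidean distance between log2(CPM + 0.1) values over the 6 libraries, after subtraction of each gene's mean, and the 5 nearest genes were taken for each. Nearest to ENSOARG00000005888 was Novel01126 (distance 1.45, Pearson r = 0.96), followed by Novel02746 (1.59, r = 0.99), Novel07949 (2.15), Novel03726 (2.27) and ENSOARG00000007311 (2.33). The median distance of all tested genes was 4.95. Nearest to Novel01126 were Novel03183 (1.22), Novel07949 (1.26), Novel04803 (1.32), Novel02746 (1.36) and ENSOARG00000005888 (1.45), against a median of 4.14. All these values are descriptions over 6 libraries that are shared by every gene compared. The pair was chosen for varying together in these libraries, so the place of each gene on the other's list is no further evidence of it.

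Novel02746, a gene of 1294 bases, was the nearest to ENSOARG00000005888 after Novel01126. It had 9, 95 and 104 reads in A13, A15 and A16 and 10, 10 and 11 in D9, D10 and D11, so that A13 again lay with the restricted libraries. Novel07949, of 1193 bases, was read 11, 79 and 53 times in A13, A15 and A16 and 1, 2 and 5 times in D9, D10 and D11. Its A13 value stood above all restricted libraries, as that of Novel01126 did. Of the 6 genes on the lists besides the pair itself, 2 were on both lists and 1 was an Ensembl gene. Membership of these lists changed with the library left out and with the measure: without single libraries, between 2 and 3 of the 5 genes nearest to ENSOARG00000005888 and between 0 and 4 of those nearest to Novel01126 remained. With Pearson correlation as the measure, 1 and 0 of them remained, and neither gene of the pair was on the other's list.

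**Figure D4:**
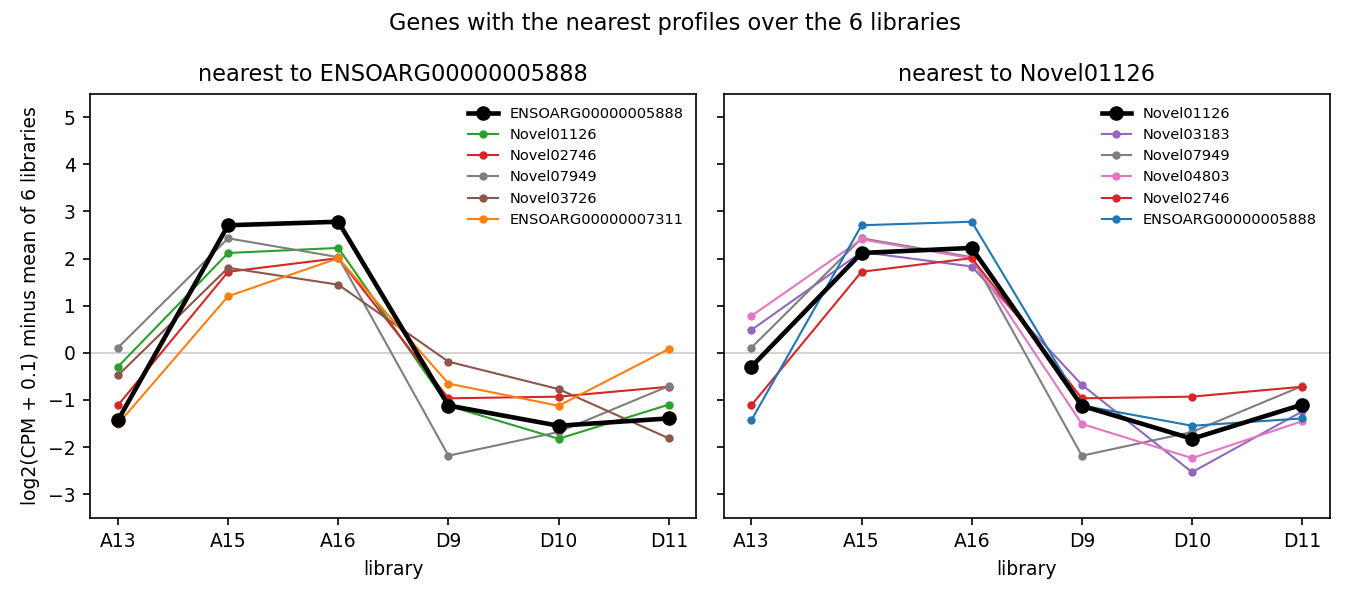
Profiles of ENSOARG00000005888 (left) and Novel01126 (right), in black, with the 5 nearest genes of each in colour, as log2(CPM + 0.1) minus the gene's mean over the 6 libraries. Lines only join the points of a gene, and all profiles are highest in A15 and A16. A13 ranges from below all restricted libraries (Novel02746 and ENSOARG00000007311) to well above them.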

How the data were processed

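Raw read counts per gene and FPKM values were deposited by the authors, each table with 1 column per sample and 0 columns left unused. The submitters' processing notes name TopHat2 and the build Oar_v3.1. How reads were counted, with which strand setting and annotation release, and how unannotated genes were assembled is not given in the sources used here. Each deposited FPKM value equals the count over gene length and column total: this returned a whole-base length for all 27955 genes with a read (largest distance 1.38e-09). CPM were computed from column totals. Counts filtered by filterByExpr (minimum count 10, minimum total 15) and scaled by TMM were fitted with the quasi-likelihood test of edgeR 4.0.16 in R 4.3.3 (Benjamini-Hochberg adjustment). SE were taken from the F statistic. Alternatives used other scalings and filters, DESeq2 1.42.0, limma 3.58.1 on voom values and on log2(FPKM + 1) or log2(FPKM + 0.1) (mean FPKM of at least 0.5 in either diet), and left out each library. The fit and the profile search were also run on simulated data, and the outcomes are not given here. Replicates were numbered in accession order and do not pair samples. The genes, lists and measures were chosen with earlier results of these data known. The genes named beside the pair were the 5 nearest in profile to each, and Novel03794, which was picked for its step.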

Additional observations from a re-analysis of the deposited data

How the results depend on the processing

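Every setting had both genes lower in restricted testes, but reuses the counts that chose them and tests nothing. The log2 change of ENSOARG00000005888 was -1.67 with limma on log2(FPKM + 1), a scale that compresses its low FPKM values, -2.55 on log2(FPKM + 0.1) and -2.95 with voom. For Novel01126 these were -2.47, -2.74 and -2.93. For ENSOARG00000005888 leaving out 1 library gave -4.30 to -3.28, and for Novel01126 -3.71 to -2.83. Genes called at an adjusted p of 0.05 numbered 0 in all settings except DESeq2 (9 genes), the edgeR exact test (8 genes) and without single libraries (0 to 1, the 1 without A13). The cause was not tested. With a pseudocount of 1 CPM the log2 ratio of highest to lowest library was 3.72 for ENSOARG00000005888 and 3.26 for Novel01126. Of the 5 genes nearest to ENSOARG00000005888, 2 remained with that pseudocount, 1 with Pearson correlation and 1 among Ensembl genes only, and between 2 and 3 without single libraries; of those nearest to Novel01126, 3, 0, 1 and between 0 and 4 remained. Added after the data were seen, the step of ENSOARG00000005888 below its 2 highest libraries was 3.36 with a pseudocount of 1 CPM and 3.91 with TMM-scaled CPM, and that of Novel01126 2.13 and 2.52. The restriction to Ensembl genes removes unannotated genes by construction. Novel01126 was among the genes nearest to ENSOARG00000005888 in 9 of 11 alternatives, and ENSOARG00000005888 among those nearest to Novel01126 in 5 of 11. These 5 include the restriction to Ensembl genes. When single libraries were left out, Novel01126 always stayed on its list, but ENSOARG00000005888 did so only without A13. These numbers reuse the counts that chose the pair and test nothing. With TMM-scaled CPM, 896 genes (4.01%) had all restricted libraries below all maintenance libraries, against 595 (2.67%), and the same held for Novel01126 on both scales. No paired analysis was possible because the labels give no replicate number shared by samples of both diets. Depth limits the low libraries: with 15 to 48 reads a gene, differences among them of less than about the interval widths given were not detectable.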
